A study of Mus musculus with 6 samples.

Results

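Collagens are triple-helical proteins of the extracellular matrix, and each gene encodes 1 chain of a helix. The collagen genes here are all genes in the count tables whose symbol has the form Col, a number, a and a number, and there were 44 of them among 24421 genes. They were grouped by the structure their chains build: 11 fibrillar, 6 basement membrane (type IV) and 27 other chains. Fibrillar chains form the tensile fibrils of scar and of the portal tracts, type IV chains form the sheet-like network of basement membranes, and the others attach to fibrils, form beaded filaments or span cell membranes. In liver, fibrillar chains are known as products of stellate cells and portal fibroblasts, type IV chains of stellate and endothelial cells, and type XVIII chains of hepatocytes.

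Liver RNA was sequenced from Townes mice, a line whose own alpha- and beta-globin genes are replaced with human ones. The 3 SS libraries came from mice labelled Hbatm1(HBA)Tow and Hbbtm2(HBG1,HBB*)Tow, whose adult beta-globin is the sickle form only. The 3 AS libraries came from mice that carry the same alleles together with Hbbtm3(HBG1,HBB)Tow, a normal beta-globin allele, so the sickle allele and the human globins are shared by both groups. All mice were 7 months old. The labels give no sex, batch or day nor whether each library is its own animal. The p-values therefore cover the spread among these libraries, which may be technical.

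SS libraries held 6971289 to 13700194 reads in genes and AS libraries 6670011 to 12658869. Levels are given as CPM, counts scaled to the library total multiplied by a TMM factor of that library. The factors were 1.01 to 1.21 in SS and 0.834 to 0.967 in AS. Compared with scaling by library totals alone, they lower every SS level and raise every AS level. Abundant hepatocyte transcripts were present in every library: the summed level of 6 hepatocyte markers was 67246 to 97516 CPM in SS and 79757 to 123420 CPM in AS. Some traits of the libraries split the groups without overlap. Records with several alignments were 14.7% to 16.2% in SS and 18.4% to 22.8% in AS. Genes detected were 15565 to 16595 in SS and 14271 to 15106 in AS. What part these traits had in the collagen differences was not tested. Another 3 differences, of single libraries or a pair, also touch the collagen values. SS replicate 1 had 53.95% of its counted records outside annotated genes (Wilson 95% interval 53.93% to 53.97%), against 40.7% to 43.9% in the other libraries. AS replicates 2 and 3 lay closest together, at a chi-square per gene of 3.98 where the remaining pairs had 27.9 to 170, but differed by more than sampling noise and were kept as separate libraries. SS replicate 3 stood apart from the other SS libraries, with a chi-square per gene of 83.1 against SS replicate 1 and 131 against SS replicate 2.

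Setting SS against AS liver asks which collagen chains differ in level in livers of mice with sickle haemoglobin only. Col1a2 rose 3.13-fold in SS liver and was the 1 collagen gene called among 24 that passed a filter on low counts. All 8 fibrillar genes tested had a higher fitted value in SS, as did 56.3% of all genes, and their median log2 change was 1.38. All 4 basement membrane genes tested were also higher, with a median of 0.62. None of them was called by edgeR or DESeq2, and 2 had an unadjusted p under 0.05. Of the 12 other collagens tested, 9 were higher and 3 lower, with a median of 0.50. None was called by edgeR and 1 was by DESeq2, and 4 had an unadjusted p under 0.05, all higher. Without SS replicate 1, Col1a1 was called beside Col1a2, where 0.712% of all genes tested were called. DESeq2 called Col1a1, Col1a2, Col5a2 and Col6a5, and 3.59% of all genes. Without SS replicate 2, AS replicate 1, AS replicate 2 or AS replicate 3 no collagen was called. With SS replicate 3 and AS replicate 1 both left out, Col1a2, Col3a1, Col5a3 and Col6a3 were called, and 5.21% of all genes. Those libraries were the pair furthest apart, at a chi-square per gene of 170, and that fit kept only 2 libraries a group. In CPM, Col18a1, which had the highest level of all collagens per length of transcript, stood lower in each SS library than in each AS library. By library totals alone its groups overlapped.

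A call means a Benjamini-Hochberg adjusted p under 0.05 in edgeR's quasi-likelihood test of 12622 genes. By that rule 0.967% of all genes tested were called, 0.911% higher in SS and 0.0555% lower, and the median log2 change of all genes was 0.08. At an unadjusted p under 0.05, 11 of the 24 collagens were higher and none was lower, where 9.12% of all genes were higher and 3.58% lower. Every SS library lay above every AS library for 9 of the 24 collagens, which was so for 12.1% of all genes. The reverse held for 1, Col18a1, where it held for 9.04% of all genes. These collagens passed a filter on low counts, and a gene high in 1 group alone could pass through that group. Col6a5, with 0 counts in AS, did so, and it is among the 11 and the 9. The counts therefore describe the 24 and not all 44. In bulk liver, fewer cells of a type and less RNA per cell cannot be told apart.

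**Figure D1:**
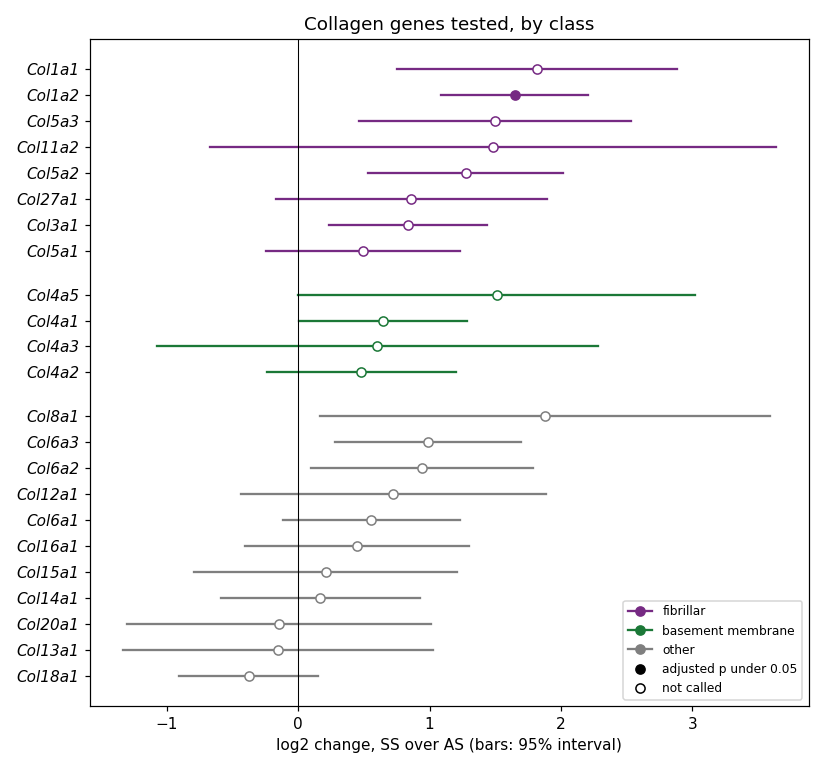
Log2 change of SS over AS (x axis) for 23 of the 24 collagen genes tested, one per row, by class. Points are edgeR estimates, bars are 95% intervals, and the filled point is the called gene, Col1a2. Col6a5 is left out because it had 0 counts in AS. All fibrillar and basement membrane points lie to the right of 0.

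Fibrillar collagens had the largest ratio of summed level among the 3 classes. Over the 11 genes, SS replicates 1, 2 and 3 had 251, 255 and 345 CPM, and AS replicates 1, 2 and 3 had 137, 122 and 116 CPM. The means were 284 ± 53.1 CPM in SS and 125 ± 10.7 CPM in AS (SD, n = 3 each), a ratio of 2.27. The groups did not overlap, and no test was made of a sum.

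Col1a2 encodes the alpha 2 chain of type I collagen, the main fibril of scar tissue. It had 57.4, 59.8 and 84.4 CPM in SS replicates 1, 2 and 3, against 22.3, 20.8 and 21.3 CPM in AS replicates 1, 2 and 3. The lowest SS library was thus far above the highest AS library, and the AS libraries lay close together. Its means were 67.2 ± 15.0 CPM in SS and 21.5 ± 0.800 CPM in AS (SD, n = 3 each), and the log2 change between them was 1.65 with an SE of 0.252 and a 95% interval of 1.09 to 2.20 (edgeR adjusted p = 0.0154). The call ended without SS replicate 2, AS replicate 1, AS replicate 2 or AS replicate 3 (edgeR adjusted p = 0.0593, 0.0798, 0.140 and 0.109), while the log2 change stayed between 1.44 and 1.74 in all 6 fits that left out a library. With AS replicates 2 and 3 summed it was 1.62 and not called (edgeR adjusted p = 0.131), and over all alternatives the adjusted p ran from 5.14e-06 to 0.140.

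Col1a1 encodes the alpha 1 chain, which makes up most of each type I helix. It had 13.99, 36.3 and 69.1 CPM in SS replicates 1, 2 and 3, and 12.4, 12.1 and 9.49 CPM in AS replicates 1, 2 and 3. SS replicate 1 was barely above the AS range while SS replicate 3 was far above it. The log2 change was 1.82 with an SE of 0.481 and a 95% interval of 0.75 to 2.88 (edgeR adjusted p = 0.133), so its estimate was as high as that of Col1a2 but its spread among SS libraries was wider. Without SS replicate 1 it was 2.22 and called (edgeR adjusted p = 0.0297), and without SS replicate 3 it was 1.16.

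Col3a1 encodes type III collagen, which forms thin reticular fibres. It had 100.02, 103 and 137 CPM in SS replicates 1, 2 and 3, against 83.3, 58.2 and 49.1 CPM in AS replicates 1, 2 and 3. Per kilobase of transcript it was the most abundant fibrillar collagen in both groups, at 20.4 CPM per kb in SS and 11.4 in AS, ahead of Col1a2 at 12.6 CPM per kb in SS and 4.01 in AS. All SS libraries were above all AS libraries, but the difference was not called, at a log2 change of 0.84 with an SE of 0.272 and a 95% interval of 0.23 to 1.44 (edgeR adjusted p = 0.237).

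The type V chains sit inside type I fibrils and limit their diameter. Col5a2 had 13.9, 11.97 and 15.0 CPM in SS replicates 1, 2 and 3, and 4.03, 7.09 and 5.81 CPM in AS replicates 1, 2 and 3, with no overlap. Col5a3 had 26.3, 23.9 and 13.4 CPM in SS replicates 1, 2 and 3, and 2.88, 11.1 and 8.59 CPM in AS replicates 1, 2 and 3, with SS replicate 3 just above the AS range. Neither was called: the log2 change was 1.27 for Col5a2 (SE 0.336, edgeR adjusted p = 0.132) and 1.496 for Col5a3 (SE 0.467, edgeR adjusted p = 0.209). Col5a1 had 14.6, 10.7 and 17.1 CPM in SS replicates 1, 2 and 3, and 8.41, 8.22 and 13.3 CPM in AS replicates 1, 2 and 3. Its groups overlapped, and its log2 change of 0.49 had a 95% interval of -0.24 to 1.23 (edgeR adjusted p = 0.555).

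The remaining fibrillar genes were at low levels. Col27a1, of a fibrillar type known from cartilage, averaged 9.24 ± 4.72 CPM in SS and 5.004 ± 2.07 CPM in AS (SD, n = 3 each), with overlapping groups. Col11a2, a type XI chain, averaged 1.81 ± 0.464 CPM in SS and 0.598 ± 0.774 CPM in AS, with 0 counts in AS replicate 1. Col2a1, Col11a1 and Col24a1 were below the count filter.

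**Figure D2:**
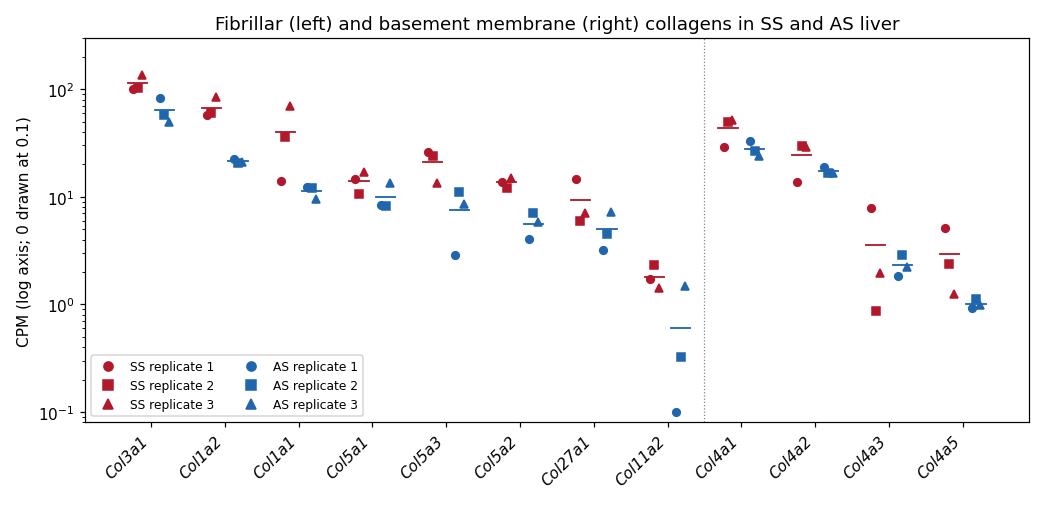
CPM on a log axis for the fibrillar (left of the dotted line) and basement membrane genes tested, with SS libraries in red and AS libraries in blue. Each point is 1 library, short lines are group means, and a value of 0 is drawn at 0.1. Col1a2 shows the tightest AS group among the fibrillar genes, between 20.8 and 22.3 CPM, with all SS libraries above it.

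Start-site sequence is shown for the fibrillar genes whose SS libraries all lay above the AS libraries, to compare the letters before their starts. Col1a2, Col3a1 and Col5a3 have an entry in RefSeq (GRCm38.p6), and Col1a1 and Col5a2 are named only. Of the 44 collagen genes, 35 matched the RefSeq promoter table. The sequences run 5′ to 3′ on the gene strand, within the 250 bases before the RefSeq start and outside annotated exons. They are chr6:4505370-4505492 (plus strand), chr1:45311288-45311537 (plus strand) and chr9:20815068-20815317 (minus strand), and capitals mark matches to the GC box motif GGGCGG, the CAAT box motif written CCAAT, or the TATA box motif TATAAA, on either strand.
Col1a2: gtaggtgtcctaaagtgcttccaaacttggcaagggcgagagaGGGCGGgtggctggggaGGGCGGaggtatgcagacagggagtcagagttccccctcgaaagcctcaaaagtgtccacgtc
Col3a1: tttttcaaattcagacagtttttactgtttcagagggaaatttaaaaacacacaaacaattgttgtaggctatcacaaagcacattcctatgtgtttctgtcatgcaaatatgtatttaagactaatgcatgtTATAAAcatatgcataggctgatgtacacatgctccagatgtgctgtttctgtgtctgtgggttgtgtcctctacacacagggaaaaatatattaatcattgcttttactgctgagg
Col5a3: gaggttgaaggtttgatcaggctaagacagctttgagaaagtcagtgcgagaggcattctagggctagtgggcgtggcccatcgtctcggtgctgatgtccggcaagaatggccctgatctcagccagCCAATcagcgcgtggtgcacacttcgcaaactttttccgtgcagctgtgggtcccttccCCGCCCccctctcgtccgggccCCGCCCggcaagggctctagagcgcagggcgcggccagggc

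In the printed stretches, Col1a2 had GGGCGG starting 205 and 188 bases before its start, Col3a1 had TATAAA at 117 bases, and Col5a3 had CCAAT at 122 bases and GGGCGG on the opposite strand at 63 and 41 bases. Over whole 250-base windows, GGGCGG on either strand stood in 21 of the 35 collagen genes (60.0%) and in 32.7% of 32851 promoters of all genes. CCAAT stood in 37.1% of the collagen genes and in 33.8% of all promoters, and TATAAA in 14.3% of the collagen genes and 12.4% of all promoters. The whole window of Col1a2 also holds CCAAT, in the part that is not printed. A match describes letters only and does not show binding.

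The chains of type I collagen were not held at 1 ratio in every library. Per kilobase of transcript, the ratio of Col1a1 to Col1a2 was 0.220, 0.548 and 0.738 in SS replicates 1, 2 and 3, and 0.502, 0.524 and 0.402 in AS replicates 1, 2 and 3. SS replicate 1 had the lowest ratio and SS replicate 3 the highest, so the SS group spanned the AS range on both sides. The ratio of Col1a1 to Col3a1 was 0.131, 0.330 and 0.475 in SS replicates 1, 2 and 3, and 0.140, 0.195 and 0.181 in AS replicates 1, 2 and 3, with SS replicates 2 and 3 above all AS libraries and SS replicate 1 below them. The ratio of Col5a1 to Col5a2 was 0.833, 0.702 and 0.899 in SS replicates 1, 2 and 3, and 1.64, 0.914 and 1.81 in AS replicates 1, 2 and 3. These groups did not overlap, although SS replicate 3 and AS replicate 2 were close, and no test of these ratios was made.

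**Figure D3:**
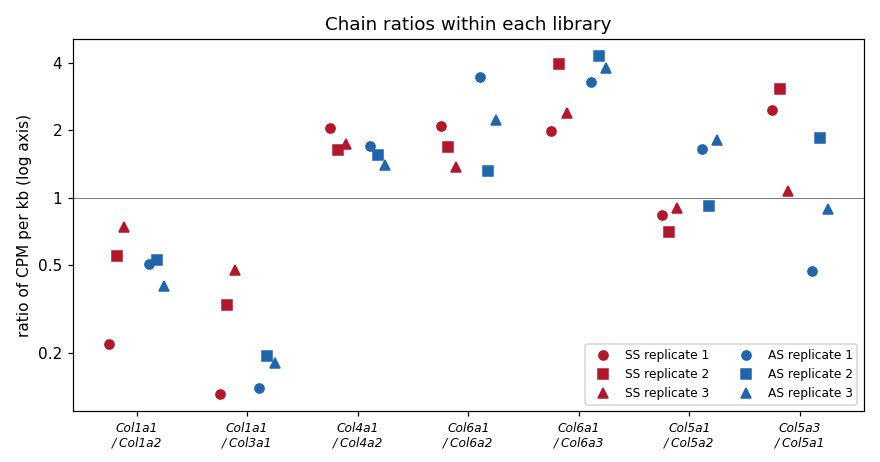
Ratio of 2 collagen chains within each library, in CPM per kilobase of transcript on a log axis. Each point is 1 library, with SS in red and AS in blue, and the grey line marks equal levels. Col1a1 to Col1a2 spreads from 0.220 to 0.738 in SS and from 0.402 to 0.524 in AS, while Col4a1 to Col4a2 stays between 1.40 and 2.05 in all 6 libraries.

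Basement membrane collagens were higher in SS on average, with SS replicate 1 close to the AS range. Over the 6 genes the summed level was 58.1, 83.8 and 84.98 CPM in SS replicates 1, 2 and 3, and 55.7, 47.0 and 43.99 CPM in AS replicates 1, 2 and 3. The groups did not overlap, but SS replicate 1 was close to AS replicate 1. Col4a1 and Col4a2 encode the chains found in nearly all basement membranes and are transcribed in opposite directions from neighbouring starts on mouse chromosome 8, where their annotated exons share 22 bases. Without a stated strand setting, reads in those bases cannot be given to either gene.

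Col4a1 had 29.2, 49.9 and 51.7 CPM in SS replicates 1, 2 and 3, against 33.3, 26.4 and 23.9 CPM in AS replicates 1, 2 and 3. Col4a2 had 13.9, 29.8 and 28.95 CPM in SS replicates 1, 2 and 3, against 19.0, 16.6 and 16.6 CPM in AS replicates 1, 2 and 3. For both genes SS replicates 2 and 3 were above all AS libraries, and SS replicate 1 was within the AS range for Col4a1 and below it for Col4a2. Neither was called, with log2 changes of 0.65 for Col4a1 (SE 0.289, 95% interval 0.0085 to 1.29, edgeR adjusted p = 0.389) and 0.48 for Col4a2 (SE 0.324, 95% interval -0.24 to 1.199, edgeR adjusted p = 0.556).

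The chains of specialised basement membranes, known best from kidney, were scarce, and are described here because of how they varied between libraries. Col4a3 had 7.92 CPM in SS replicate 1, 0.870 in SS replicate 2 and 1.96 in SS replicate 3, while the AS libraries had 1.84 to 2.90 CPM. Its log2 change of 0.60 was -0.71 without SS replicate 1, and its exons share 274 bases with an antisense gene of GENCODE, whose reads cannot be told apart. Col4a5 had 5.15, 2.39 and 1.25 CPM in SS replicates 1, 2 and 3, all above the AS libraries at 0.921 to 1.13 CPM, and was not called (log2 change 1.51, SE 0.682, edgeR adjusted p = 0.393). SS replicate 3 was just above the AS range, and the change was 0.85 without SS replicate 1. Col4a4 and Col4a6 were below the count filter.

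Among the other collagens, Col18a1 outweighed all the rest. It encodes the core protein of type XVIII collagen, a basement membrane zone proteoglycan whose C-terminal fragment is endostatin. It had 594, 650 and 599 CPM in SS replicates 1, 2 and 3, against 792, 796 and 804 CPM in AS replicates 1, 2 and 3. In CPM, all SS libraries were below the AS libraries, which lay close together, but the difference was not called (log2 change -0.38, SE 0.239, 95% interval -0.91 to 0.15, edgeR adjusted p = 0.529). Its log2 change was -0.10 when libraries were scaled by their totals alone, a scaling that moved the median of all genes by 0.28. By that scaling the groups overlapped. SS replicate 3 was above AS replicate 1, with 7651 Col18a1 reads of 10589220 against 6879 of 10424592. RefSeq lists 2 starts for Col18a1, and counts per gene do not separate their transcripts.

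Col18a1 took a smaller part of collagen reads in SS liver. It held 56.8%, 56.95% and 49.1% of collagen reads in SS replicates 1, 2 and 3, and 71.5%, 74.3% and 73.9% in AS replicates 1, 2 and 3. The Wilson 95% intervals of the SS libraries lay between 48.3% and 57.9%, and those of the AS libraries between 70.5% and 75.3%. The sum over all 44 collagens was 1045, 1141 and 1220.5 CPM in SS replicates 1, 2 and 3, and 1109, 1072 and 1088 CPM in AS replicates 1, 2 and 3, with overlapping groups. That overlap depends on the scaling, as by library totals alone every SS library was above every AS library. The lowest SS library, replicate 1, had 7922 collagen reads of 6971289, and the highest AS library, replicate 3, had 13304 of 12658869. Without Col18a1 the sum was 452, 491 and 622 CPM in SS replicates 1, 2 and 3, against 316, 276 and 284 CPM in AS replicates 1, 2 and 3, and the groups were apart. These sums were not tested.

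**Figure D4:**
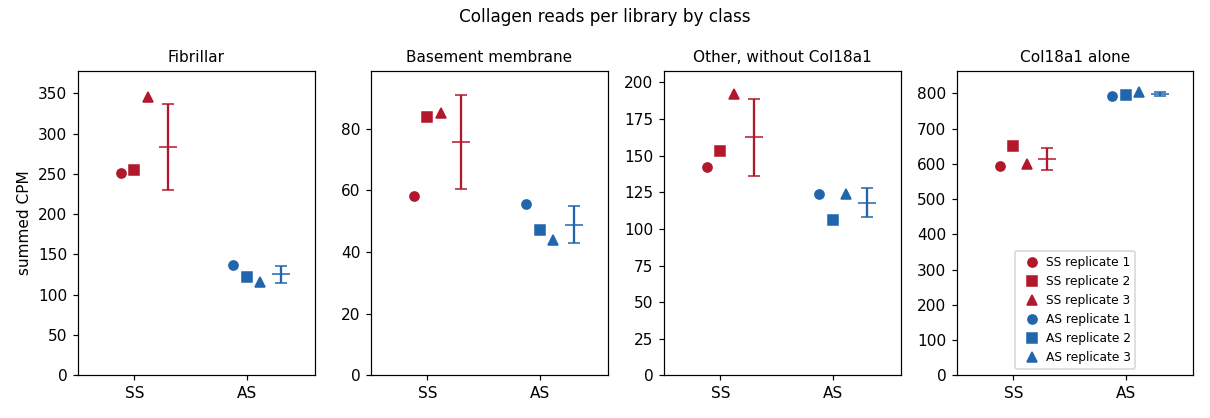
Summed CPM per library (points) for fibrillar, basement membrane and other collagens without Col18a1, and for Col18a1 alone, each on its own axis from 0. SS is in red on the left and AS in blue on the right, and bars give the mean and SD of 3 libraries. Fibrillar sums are 251 to 345 CPM in SS and 116 to 137 CPM in AS, and Col18a1 is 594 to 650 CPM in SS and 792 to 804 CPM in AS.

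Type VI chains form beaded filaments that link cells to fibrils. Col6a3 had 21.8, 18.3 and 21.7 CPM in SS replicates 1, 2 and 3, against 14.5, 7.25 and 9.24 CPM in AS replicates 1, 2 and 3, with no overlap (log2 change 0.99, SE 0.321, edgeR adjusted p = 0.237). Col6a1 had 17.6, 29.5 and 21.1 CPM in SS replicates 1, 2 and 3, and 19.5, 12.7 and 14.2 CPM in AS replicates 1, 2 and 3. Col6a2 had 8.05, 16.9 and 14.8 CPM in SS replicates 1, 2 and 3, and 5.41, 9.34 and 6.13 CPM in AS replicates 1, 2 and 3. The groups of Col6a1 and Col6a2 overlapped, and neither was called (log2 changes 0.56 and 0.94, edgeR adjusted p = 0.474 and 0.347).

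Col6a5, an alternative type VI chain, had 14, 19 and 13 counts in SS replicates 1, 2 and 3 and 0 counts in all AS libraries. With AS set at a floor of 3 counts over the group and the SS counts taken as exact, the ratio of SS over AS was 12.2. Col6a5 was at 1.35 CPM over the pooled SS reads. It missed the threshold in edgeR (adjusted p = 0.0825) and passed it in DESeq2 (adjusted p = 0.00712). With 0 counts in AS, Col6a5 passed the filter on low counts through SS alone, so neither p-value is support for the difference. The related chains Col6a6 and Col6a4, also on chromosome 9, were nearly silent: Col6a6 had 2, 1 and 2 counts in SS replicates 1, 2 and 3 and 0, 0 and 1 in AS replicates 1, 2 and 3, and Col6a4 had none. The median of the 12 other collagens is also 0.50 with Col6a5 set at its ratio against the floor.

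Fibril-associated collagens, which decorate the surface of fibrils, showed no call. Col14a1, the most abundant of them, had 36.7, 59.7 and 103 CPM in SS replicates 1, 2 and 3, against 62.8, 53.0 and 61.7 CPM in AS replicates 1, 2 and 3. SS replicate 1 was below the AS range and SS replicate 3 above it, and the log2 change of 0.17 (SE 0.341) was -0.30 without SS replicate 3. Col12a1, Col16a1 and Col20a1, of the same group, had log2 changes of 0.72, 0.45 and -0.15, each with overlapping groups. That of Col12a1 was 0.13 without SS replicate 1.

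The last 3 genes tested were Col15a1, a basement membrane zone chain, Col13a1, a transmembrane chain, and Col8a1, a short network-forming chain of vessel walls. Col15a1 averaged 7.38 ± 1.84 CPM in SS and 6.33 ± 3.21 CPM in AS (SD, n = 3 each). Col13a1 averaged 3.70 ± 2.45 CPM in SS and 4.13 ± 0.612 CPM in AS. Col8a1 had 5.67, 1.16 and 2.19 CPM in SS replicates 1, 2 and 3, and 0.921, 0.322 and 1.063 CPM in AS replicates 1, 2 and 3, and its log2 change of 1.88 had an SE of 0.774 (edgeR adjusted p = 0.356). Its SS replicate 2 and AS replicate 3 were close together, and the change was 1.061 without SS replicate 1.

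The 20 collagen genes below the count filter had more reads in SS replicate 1 than in any other library. Beside the 3 fibrillar and 2 type IV genes named above, they were Col6a4, Col6a6, Col7a1, Col8a2, Col9a1, Col9a2, Col9a3, Col10a1, Col17a1, Col19a1, Col22a1, Col23a1, Col25a1, Col26a1 and Col28a1. SS replicate 1 held 242 reads in the 20 genes, or 31.9 CPM, against 61 and 56 reads in SS replicates 2 and 3 and 34, 18 and 57 reads in AS replicates 1, 2 and 3. Of the 19 genes with any read, 13 had their highest level in SS replicate 1, where 44.2% of all 6074 detected genes outside the test did so. Col19a1, a fibril-associated chain, had 83 counts in SS replicate 1 against 0 and 1 in SS replicates 2 and 3 and 12, 2 and 2 in AS replicates 1, 2 and 3. Col11a1, a fibrillar chain of cartilage, had 60 counts in SS replicate 1, 4 and 0 in SS replicates 2 and 3, and 3, 0 and 0 in AS replicates 1, 2 and 3. SS replicate 1 is also the library with the highest share of records outside annotated genes, and the part of that share in these reads was not tested. Col22a1, another fibril-associated chain, was the 1 gene of the 20 whose groups did not overlap. It had 1, 4 and 4 counts in SS replicates 1, 2 and 3 and 0 counts in AS. How many of all genes outside the test had such groups was not counted. Among genes tested, every SS library lay above every AS library for 12.1%. The ratio of Col22a1 was 2.38 with AS at the same floor and the 9 SS counts taken as exact, so it is not a lower limit. With no filter on low counts, 19 of the 20 could be fitted. None was called (1.16% of all genes were), none had an unadjusted p under 0.05, and the lowest edgeR adjusted p was 0.470, for Col11a1.

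**Figure D5:**
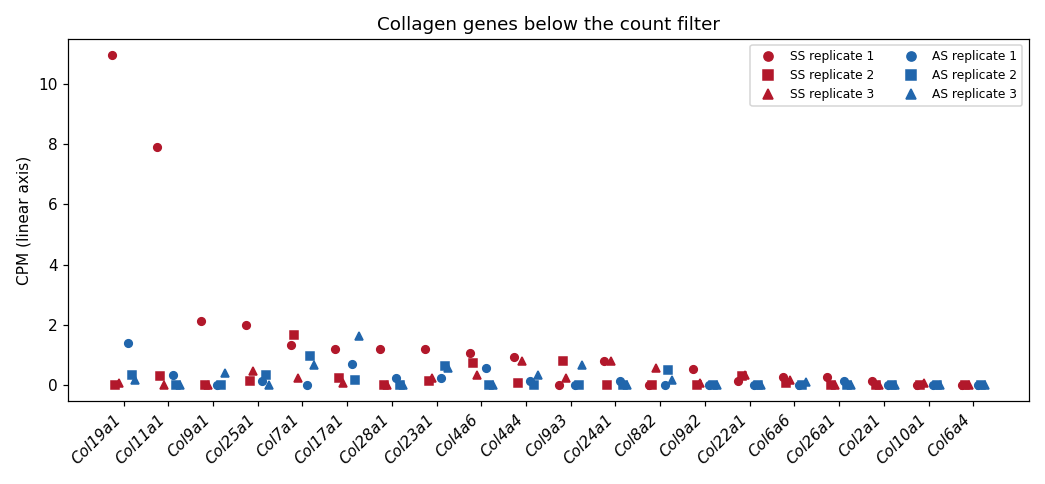
CPM on a linear axis for the 20 collagen genes below the count filter. Each point is 1 library, with SS in red on the left of each gene and AS in blue on the right. The red circles of SS replicate 1 stand highest for Col19a1 and Col11a1, at 10.95 and 7.92 CPM.

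None of the genes tested that make and cross-link collagen was called by edgeR or DESeq2. An unadjusted p under 0.05 was reached by 2 of 14 genes for chain modification and folding and 1 of 5 for propeptide removal. No cross-linking oxidase of the 4 tested reached it. All 3 genes were higher in SS, where 9.12% of all genes were higher at that p. Of 14 tested genes for chain modification and folding, 11 were higher and 3 lower in SS, with a median log2 change of 0.42. P4ha1, a catalytic subunit of prolyl 4-hydroxylase, had 20.2, 17.9 and 29.2 CPM in SS replicates 1, 2 and 3, against 11.98, 8.38 and 10.96 CPM in AS replicates 1, 2 and 3 (log2 change 1.10, SE 0.305, edgeR adjusted p = 0.154). P4hb, its partner subunit and a general folding enzyme of the hepatocyte, averaged 1203 ± 114 CPM in SS and 1458 ± 342 CPM in AS (SD, n = 3 each). Of 5 tested genes for propeptide removal, 4 were higher and the median was 0.44. Adamts2, which removes the N-terminal propeptide of fibrillar chains, came nearest to a call, with an SE of 0.328 on a log2 change of 0.93 (edgeR adjusted p = 0.279), and Bmp1, the C-terminal proteinase, had a log2 change of -0.16. All 4 cross-linking oxidases tested were higher, with a median of 0.76. Among them Loxl2 came nearest to a call, with an SE of 0.515 on a log2 change of 1.10 (edgeR adjusted p = 0.411), and Loxl3 had a log2 change of 0.26, which was -0.04 without SS replicate 2 and -0.05 without AS replicate 2.

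Lum was the 1 gene called by edgeR among the binding partners, where 0.967% of all genes tested were called. It encodes lumican, a small proteoglycan that binds fibrils, and had 34.8, 42.2 and 51.8 CPM in SS replicates 1, 2 and 3, against 14.1, 10.95 and 10.5 CPM in AS replicates 1, 2 and 3. On the log2 scale Lum rose by 1.86 with an SE of 0.276 (edgeR adjusted p = 0.0134). The call ended without SS replicate 2 or any 1 of the AS libraries (edgeR adjusted p from 0.0559 to 0.120), with log2 changes of 1.77 to 1.99. The 2 other tested proteoglycans of that list, Dcn and Bgn, had log2 changes of 0.22 and 0.46, and the list median was 0.46. Of 5 collagen receptor and uptake genes tested, all were higher and the median was 0.46. None was called by edgeR, and DESeq2 called 2, Ddr1 and Mrc2, which were also the 2 with an unadjusted p under 0.05. Over all genes DESeq2 called 3.59%, and 9.12% were higher at that unadjusted p. Ddr1, a receptor tyrosine kinase for collagen, differed by 2.50 on the log2 scale, with an SE of 0.669 (edgeR adjusted p = 0.139; DESeq2 adjusted p = 0.0116). The integrin subunit gene Itgb1 had 0.11, and -0.20 without SS replicate 3. Gp6, a platelet collagen receptor, had no read in any library.

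Partners of type IV collagen were mostly higher in SS, a direction shared by 56.3% of all genes. All 4 cross-linking oxidases and all 5 receptor and uptake genes tested shared it, while 5 of 6 hepatocyte markers were lower. Of the 12 partners tested, 11 were higher, with a median of 0.65. None was called by edgeR and 1, Nid1, by DESeq2, and 3 had an unadjusted p under 0.05, all higher. DESeq2 called 3.59% of all genes, and 9.12% of all genes were higher at that unadjusted p. Nid1, which bridges laminin and type IV collagen, had 22.4, 38.2 and 96.7 CPM in SS replicates 1, 2 and 3, against 8.64, 17.4 and 13.5 CPM in AS replicates 1, 2 and 3, without overlap and with SS replicate 3 far above the rest. The log2 change of Nid1 was 2.00 with an SE of 0.499 (edgeR adjusted p = 0.114; DESeq2 adjusted p = 0.00361), and 1.21 without SS replicate 3. Sparc, a collagen-binding matrix protein, averaged 129 ± 37.7 CPM in SS and 128 ± 29.9 CPM in AS (SD, n = 3 each).

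Markers of collagen-producing cells differed among themselves, and none was called by edgeR or DESeq2. At an unadjusted p under 0.05, 1 stellate cell marker, 1 portal fibroblast marker and no myofibroblast marker was higher, and none was lower. Over all genes, 9.12% were higher and 3.58% lower at that p. Of 10 stellate cell markers, 9 were higher in SS, none was called and the median log2 change was 0.19. Their summed level was 148 to 260 CPM in SS and 154 to 169 CPM in AS, with SS replicate 3 the highest. Lrat, which makes the retinyl esters stored in stellate cells, averaged 18.5 ± 4.54 CPM in SS and 18.5 ± 5.003 CPM in AS (SD, n = 3 each). The summed level of 5 myofibroblast and smooth muscle markers was 62.4 CPM in SS replicate 1, 26.0 and 20.1 CPM in SS replicates 2 and 3, and 21.3 to 31.5 CPM in AS. Of these, all 3 tested were higher and none was called (median 0.68), and Acta2, the actin of myofibroblasts, had 20.1 CPM in SS replicate 1 against 4.03 to 7.93 CPM in the other 5 libraries. The 6 portal fibroblast markers summed to 17.0 to 29.8 CPM in SS and 8.75 to 15.5 CPM in AS, without overlap, with 4 of 4 tested higher, none called and a median of 0.71. Of those 4, only Eln had every SS library above every AS library, and SS replicate 1 had the highest sum. Without Eln the sums overlapped, with SS replicate 3 just below AS replicate 2. No marker of these 3 lists was at 0 in all libraries, and their part in the collagen differences was not tested.

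Other cell types gave a mixed picture beside the collagens. The 6 sinusoidal endothelial markers summed to 278 to 434 CPM in SS and 237 to 366 CPM in AS (4 of 6 higher, median 0.17), and the 5 other endothelial markers to 97.9 to 190 CPM in SS and 121 to 126 CPM in AS (4 of 5 higher, median 0.15). The 6 cholangiocyte markers summed to 117 to 249 CPM in SS and 86.4 to 105 CPM in AS (4 of 4 tested higher, median 0.56). Spp1 made up most of these sums, and without it they were 8.61 to 30.1 CPM in SS and 8.91 to 16.6 CPM in AS, which overlap. The 6 Kupffer cell markers summed to 793 to 1969 CPM in SS and 625 to 821 CPM in AS (6 of 6 higher, median 0.84), and the 5 platelet markers to 12.3 to 23.3 CPM in SS and 6.68 to 9.08 CPM in AS (3 of 3 tested higher, median 1.69). None of these markers was called by edgeR, and DESeq2, which called 3.59% of all genes, called 3 of them, Lyve1, Vwf and Pf4. At an unadjusted p under 0.05, 1 sinusoidal, 1 other endothelial, 1 cholangiocyte, 4 Kupffer cell and 2 platelet markers were higher. The share over all genes was 9.12%. Of the hepatocyte markers 5 of 6 were lower, with a median of -0.35, none was called by either tool and none had an unadjusted p under 0.05. Erythroid markers were the exception: both tested, Alas2 and Slc4a1, rose, with a median of 3.88, and the 3 in the tables summed to 205 to 397 CPM in SS and 29.9 to 33.8 CPM in AS. Slc4a1, the anion exchanger of red cells, was not called without AS replicate 1 (edgeR adjusted p = 0.0549), while Alas2, which starts haem synthesis in red cell precursors, was called in all 6 fits that left out a library. What part these cell types had in the collagen differences was not tested.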

How the data were processed

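For each of 6 libraries the authors deposited unnormalized counts of reads per gene symbol. HISAT2, HTSeq and mm10 are named as tools and genome build per the submitters' processing notes. Their versions, the annotation and the strand setting are not given in the sources used here. The reads of overlapping genes or similar copies may be lost or misplaced by such counting. Library sizes and tests leave out the 5 counters that name no gene. They averaged 46.9% (no gene), 15.4% (several alignments), 5.05% (not aligned), 3.26% (low quality) and 0.384% (ambiguous) of SS records, and 41.6%, 20.1%, 3.72%, 2.71% and 0.527% of AS records. Reads are not unique molecules, so intervals cover counting error only, and floors cover that of the AS counts only.

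Genes passed edgeR's filterByExpr (minimum count 10, minimum total 15). SS was compared with AS in edgeR 4.0.16 (R 4.3.3) by the two-sided quasi-likelihood F-test (glmQLFit with robust = TRUE, TMM factors), with Benjamini-Hochberg adjustment over all genes tested. The SE was derived from the F statistic. CPM, counts scaled to library size, uses the same factors. Lengths (the transcript with the longest coding sequence) and positions came from GENCODE on the same build. The procedure was tested on simulated data. Alternatives were other scaling, filters, fits and tools (DESeq2 1.42.0, limma-voom in limma 3.58.1), and libraries left out or summed.

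The collagen classes, 6 pathway lists and 10 marker lists, and the tests, were chosen with earlier results of these data known. Values of every library are given for the 13 collagens whose mean reached 10 CPM in SS or AS, and for others singled out after their values were seen. Of each pathway list, called members or the member with the lowest p are named, with 1 further abundant member. Listed markers for which no result is reported here were left out of their list's summary.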

Additional observations from a re-analysis of the deposited data

How the results depend on the processing

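The number of genes called over all genes tested was 122. It was 217 with no filter on low counts, 453 with DESeq2, 31 with limma-voom, 31 with AS replicates 2 and 3 summed, 662 with SS replicate 3 and AS replicate 1 both left out, and 22 to 99 with 1 library left out. The number of collagens called was 1. It was 4 with DESeq2, 0 with AS replicates 2 and 3 summed, 4 with SS replicate 3 and AS replicate 1 both left out, and 0 to 2 with 1 library left out. For fibrillar collagens it was 1, and under the same alternatives 3, 0, 3 and 0 to 2. For other collagens it was 0, and 1 with DESeq2 (Col6a5) or with SS replicate 3 and AS replicate 1 both left out (Col6a3). No basement membrane collagen was called under any alternative run. The cause of these differences was not tested.

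With the replicate number as a block, 460 genes and 4 collagens were called, 3 of them fibrillar (Col1a1, Col1a2 and Col5a3) and 1 other (Col6a5). The deviations of libraries with the same number correlated at 0.04, -0.11 and 0.17. The labels name no pairing, and so few values cannot tell whether the numbers pair the libraries.

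Over 24 collagens and 17 alternatives, 381 of 408 log2 changes kept their direction and their side of the threshold. Of the rest, 5 were Col1a2 without its call, 10 gained a call and 12 changed sign, in 5 genes that were never called. With 1 library left out, Col13a1 ran from -0.87 to 0.15 (0.024 without SS replicate 1), Col14a1 from -0.30 to 0.46 (without SS replicate 3 and SS replicate 1), Col15a1 from -0.14 to 0.62 (-0.011 without SS replicate 1), Col20a1 from -0.49 to 0.13, and Col4a3 from -0.71 (no SS replicate 1) to 1.063. With library totals alone Col13a1 was 0.16 and Col20a1 0.083, and with limma-voom Col4a3 was -0.17. With SS replicate 3 and AS replicate 1 both left out, Col14a1 was -0.25 and Col15a1 -0.053. Library totals alone moved the median of all genes by 0.28 and no filter by 0.15, and the fibrillar median was 1.07 without AS replicate 1.

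Of partner and marker genes, tried under the same alternatives after seeing the data, P4hb was 0.0087 and Bmp1 0.13 with library totals alone. With 1 library left out, Loxl3 ran from -0.053 to 0.56, Itgb1 from -0.20 to 0.29, Sparc from -0.24 to 0.22 and Acta2 from -0.28 (no SS replicate 1) to 1.05. Sparc was -0.029 with RLE factors, -0.029 with DESeq2, -0.0062 with limma-voom and -0.088 with AS replicates 2 and 3 summed. Itgb1 was -0.26 with SS replicate 3 and AS replicate 1 both left out.

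With 3 libraries a group and 6670011 to 13700194 reads each, 20 of the 44 collagens fell below the count filter. With no filter 43 were tested and the same 1, Col1a2, was called. A p above the threshold does not show that levels were alike.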
